A study of Mus musculus with 16 samples.

Results

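Eda2r, Fas, Tnfrsf10b, Perp, Aen, Phlda3 and Ei24 are transcriptional targets of the tumor suppressor p53 that act in death receptor signalling or elsewhere in apoptosis. They were chosen by name, as targets outside the BCL2 family, with earlier results of these data known. They are 7 of 51912 listed genes, of which 27394 had a count in at least 1 mouse. UMI RNA-seq of E15.5 cerebral cortex was performed on 15 mice to ask what deletion of the kinetochore gene Knl1 (labelled by its older symbol, Casc5) does to the transcriptome, and what remains of it when Trp53 is deleted as well.

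The mice fell into 3 genotypes, all at E15.5. The 7 ctrl mice were 5 labelled wild type at Knl1 (2, 6, S3, S1 and T3) and 2 labelled heterozygous (T4 and T5), and the labels do not give their Cre status. The 4 cKO mice (5, 7, S2 and F3) carried the hGFAP-Cre transgene and a conditional Knl1 knockout. The 4 dKO mice (T2, T8, F1 and F7) carried hGFAP-Cre and conditional knockouts of both Knl1 and Trp53. The Cre acts in cortical progenitors and the cells they give rise to, whereas the dissected cortex also holds interneurons, microglia, vessels and other cells from outside that lineage, and every level below is a mean over all of them. In such bulk RNA, fewer cells of a type and less RNA per cell cannot be told apart. The mice came from 4 litters and 3 labelled batches. Litters 1 and 2 held ctrl and cKO mice, litter 3 held ctrl and dKO mice, and litter 4 held 1 cKO mouse (F3) and 2 dKO mice. All dKO mice were in batch 3, and 3 of 4 cKO mice were in batch 1.

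Death receptors are membrane proteins of the tumor necrosis factor receptor family whose ligands cluster them, so that their cytoplasmic death domains recruit the adaptor FADD and activate caspase 8. After DNA damage or mitotic error, p53 raises transcription of several of these receptors and of intracellular effectors that act on mitochondria, survival kinases or DNA, and so sensitizes a cell to apoptosis. In the embryonic cortex, progenitors are known to be prone to p53-dependent death. Among the 7 genes, Fas and Tnfrsf10b encode classical death receptors (for FAS ligand and for TRAIL), and Eda2r encodes the ectodysplasin A2 receptor, which has no classical death domain. Perp encodes a tetraspan membrane protein of the PMP22 family found in desmosomes. Aen encodes a nuclear exonuclease that digests DNA in apoptosis, Phlda3 a pleckstrin homology domain protein that restrains AKT at the membrane, and Ei24 an endoplasmic reticulum protein linked to autophagy and to apoptosis.

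Since the question is one of p53 targets, promoter windows were searched for the p53 consensus decamer, the unit that is paired in a p53 response element. RefSeq windows on GRCm38.p6, from 250 bases before to 50 bases after a transcription start, were at hand for 5 of the 7 genes (6 windows, since Aen has 2). Tnfrsf10b and Perp had none. The decamer reads as itself on the opposite strand, so 1 scan covers both strands. It was found in 3 of 6 windows, which are 2 distinct sites, in Aen and Ei24, against 8.36% of 32851 windows of the same length. The windows of the 2 genes that hold it are shown beside those of Eda2r and Fas, the 2 genes with the largest differences below, whose windows hold no full match. Capitals mark the decamer, and a match or its lack in these letters is a description of the window only.
Eda2r, chrX:97377160-97377459, minus strand: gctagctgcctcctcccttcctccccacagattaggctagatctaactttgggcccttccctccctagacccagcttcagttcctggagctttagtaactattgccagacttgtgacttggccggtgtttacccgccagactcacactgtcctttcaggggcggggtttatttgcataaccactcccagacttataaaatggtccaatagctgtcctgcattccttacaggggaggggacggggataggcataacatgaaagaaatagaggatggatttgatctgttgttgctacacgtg
Fas, chr19:34290409-34290708, plus strand: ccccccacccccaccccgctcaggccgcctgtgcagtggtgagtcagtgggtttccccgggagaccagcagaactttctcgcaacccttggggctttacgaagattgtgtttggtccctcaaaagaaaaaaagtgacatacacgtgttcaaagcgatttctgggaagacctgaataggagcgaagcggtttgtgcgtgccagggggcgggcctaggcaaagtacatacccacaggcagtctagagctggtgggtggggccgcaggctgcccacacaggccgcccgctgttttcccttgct
Aen, chr7:78895677-78895976, plus strand: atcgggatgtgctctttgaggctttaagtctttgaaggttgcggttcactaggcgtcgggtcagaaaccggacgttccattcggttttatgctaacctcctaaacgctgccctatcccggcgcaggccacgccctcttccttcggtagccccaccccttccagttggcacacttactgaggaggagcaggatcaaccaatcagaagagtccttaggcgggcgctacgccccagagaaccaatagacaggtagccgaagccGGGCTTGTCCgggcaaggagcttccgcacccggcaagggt
Ei24, chr9:36797285-36797584, minus strand: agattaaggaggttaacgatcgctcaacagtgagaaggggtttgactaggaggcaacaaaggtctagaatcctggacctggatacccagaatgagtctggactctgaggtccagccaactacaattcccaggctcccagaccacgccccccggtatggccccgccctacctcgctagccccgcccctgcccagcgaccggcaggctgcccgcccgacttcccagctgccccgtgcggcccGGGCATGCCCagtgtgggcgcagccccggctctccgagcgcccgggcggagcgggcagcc
The Aen decamer lies at chr7:78895937-78895946, and the Ei24 decamer at chr9:36797335-36797344. The closest match in the Eda2r and Fas windows had 9 of 10 letters, and that in the Phlda3 window 8 of 10.

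The unit of level used here is CPM, that is, counts divided by the TMM-adjusted library total (set over the 15 mice) and multiplied by 1000000. Depth limits most of these genes. Counts assigned to genes ranged from 399832 to 3266227 per mouse in ctrl (median 1021502), from 4178461 to 8800987 in cKO and from 552186 to 5396803 in dKO. Every cKO mouse was thus sequenced more deeply than every ctrl mouse, so that for a low gene a 0 in a ctrl mouse carries less information than a 0 in a cKO mouse. The Knl1 level overlapped between the groups, at 48.7 to 80.0 CPM in ctrl, 50.004 to 80.4 in cKO and 33.4 to 58.2 in dKO. The Trp53 level did as well, at 15.6 to 47.0 CPM in ctrl, 24.0 to 33.3 in cKO and 19.8 to 32.3 in dKO. These counts cover each whole gene in all cells of the cortex, and the sources used here do not say which exons are removed, so they do not test the genotype labels. The radial glia marker Sox2 and the neuronal marker Tubb3 were listed at 0 in every mouse, whereas 6 of 7 markers of radial glia and 6 of 7 of cortical neurons had counts. Both genes are known to be abundant in this tissue, so a gene listed at 0 in every mouse cannot be read here as absent, and the cause was not tested. Each of the 7 genes had counts in some mice.

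In cKO cortex Eda2r was several times its ctrl level, Fas was detected in every mouse, and Phlda3, Aen, Ei24 and Tnfrsf10b had higher means than in ctrl, whereas the Perp means were close (0.533 CPM in cKO and 0.437 in ctrl). In dKO cortex none of the 7 passed the test against ctrl. Eda2r was the only one of the 7 past a false discovery rate (FDR, Benjamini-Hochberg over all listed genes, edgeR likelihood ratio test) of 0.05 in cKO compared to ctrl, where 0.116% of 25764 genes with a count were called higher. At an unadjusted p below 0.05, 6 of 7 were higher (all but Perp), against 3.97% of the genes. In 3 of 7 (Eda2r, Fas and Ei24) every cKO mouse lay above every ctrl mouse, against 0.893% of the genes. Since the 7 genes were chosen with earlier results of these data known, these shares are a description and not a test of the set. The count of 6 was 5 to 6 when each mouse was left out in turn, 4 by DESeq2 and 1 (Aen) within batch 3. The median log2 fold change of the 7 was 0.96, and that of all genes with a count 0.01.

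**Figure D1:**
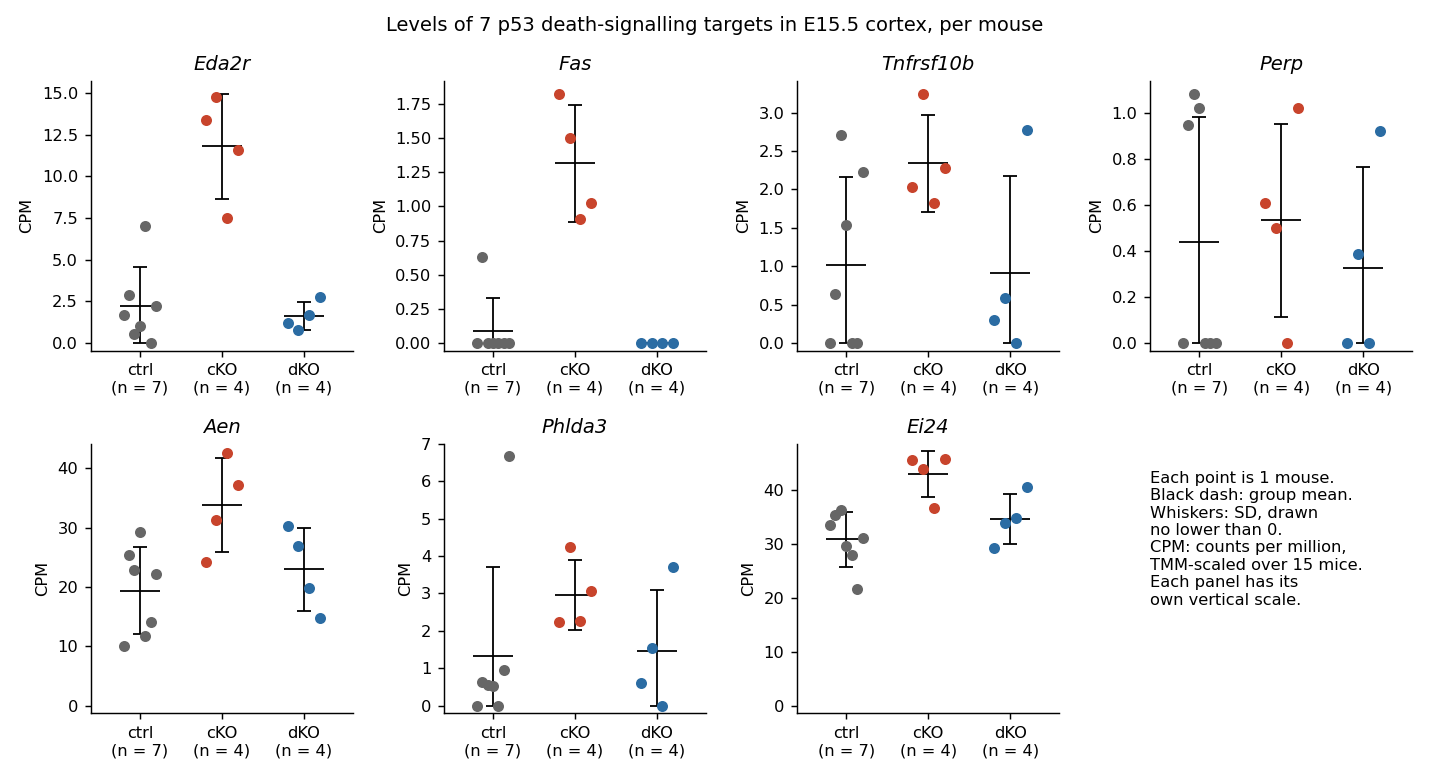
CPM of each of the 7 genes (vertical axis, 1 scale per panel, starting at 0) in 7 ctrl, 4 cKO and 4 dKO mice. Each point is 1 mouse, dashes are group means and whiskers the SD. The cKO mice lie apart from both other groups for Eda2r (7.50 to 14.8 CPM) and Fas (0.909 to 1.83 CPM), whereas the groups overlap for Perp.

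Eda2r lies on the X chromosome (GRCm38, chrX:97333840-97377216, minus strand, 8 exonic blocks). Its level was 13.4 CPM in cKO mouse 5, 14.8 in mouse 7, 11.6 in S2 and 7.50 in F3, from 66, 59, 102 and 33 counts. In ctrl it ranged from 0 to 7.00 CPM with a median of 1.68, from 0 to 9 counts per mouse. In dKO it was 1.66 CPM in T2, 2.77 in T8, 1.21 in F1 and 0.776 in F7, from 1, 3, 4 and 4 counts. All 4 cKO mice exceeded all 11 other mice, and the nearest of these was ctrl mouse T3, the shallowest library, whose 7.00 CPM rest on 3 counts. The means were 11.8 ± 3.15 CPM in cKO (SD, n = 4), 2.19 ± 2.34 in ctrl (n = 7) and 1.60 ± 0.858 in dKO (n = 4). The log2 fold change was 2.69 ± 0.43 (SE) in cKO compared to ctrl (FDR = 1.1e-08), second by p among all genes, and 3.25 ± 0.49 in cKO compared to dKO (FDR = 3.3e-10), where it ranked first. In dKO compared to ctrl it was -0.38 ± 0.75 (FDR = 1), with a 95% interval from -1.85 to 1.08.

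The Eda2r difference was present in each litter that held a cKO mouse. In litter 1 the pooled counts gave 14.01 CPM in cKO and 2.66 in ctrl, a 5.26-fold difference (exact 95% interval of counting error 2.77 to 11.2). In litter 2 they gave 11.6 CPM in cKO and 0.791 in ctrl, where the ratio of 14.7 rests on 3 ctrl counts and has an interval from 4.88 to 72.3. In litter 4, F3 had 7.50 CPM and its 2 dKO littermates 0.945 CPM together, a ratio of 7.94 (3.59 to 19.9). The dKO and ctrl mice of litter 3 had 4 counts each (ratio 1.15, interval 0.214 to 6.18). Within batch 1 the log2 fold change in cKO compared to ctrl was 2.65 (FDR = 4.6e-07). Within batch 3, with F3 as the only cKO mouse, it was 1.69 (FDR = 1) against ctrl and 2.51 (FDR = 1) against dKO, in fits that assume that the single mouse varies like the others. Among the mice of over 1000000 counts the log2 fold change was 3.01 (FDR = 7.2e-09) against ctrl. Since the gene is X-linked, the sexes were compared as well: cKO females had 11.6 and 14.8 CPM and cKO males 7.50 and 13.4 CPM, and the cKO effect differed between sexes by -0.10 on the log2 scale (female minus male, edgeR interaction, FDR = 1).

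Fas, the receptor for FAS ligand, lies on chromosome 19 (GRCm38, chr19:34290666-34327772, plus strand, 12 exonic blocks). It was detected in all 4 cKO mice, at 1.83 CPM in mouse 5, 1.50 in mouse 7, 1.02 in S2 and 0.909 in F3, from 9, 6, 9 and 4 counts. It had 2 counts in ctrl mouse 6 (0.633 CPM) and none in the 6 other ctrl mice. It had no count in any dKO mouse. The cKO mice thus lay above all others, but on 28 counts in total. Pooled counts gave 1.27 CPM in cKO (exact 95% Poisson interval 0.841 to 1.83) and 0.211 in ctrl (0.0255 to 0.761), a ratio of 6.01 with an interval from 1.52 to 52.0, since it rests on 2 ctrl counts. In dKO the count of 0 has an exact 95% Poisson interval up to 0.363 CPM over the group, where 3 counts would be 0.296 CPM. The exact lower limit of the cKO to dKO ratio of pooled counts was 3.26. Within litters the numbers were smaller. In litter 1 the cKO to ctrl ratio was 3.16 on 2 ctrl counts, with an interval from 0.734 to 28.4 that includes no difference, and in litter 2, with 9 counts in cKO and 0 in ctrl, the lower limit of the ratio was 0.852. In litter 4, F3 had 4 counts and its dKO littermates 0, with a lower limit of 1.27. In the edgeR fit Fas had an FDR of 0.348 in cKO compared to ctrl and of 0.0393 in cKO compared to dKO. The latter held in 9 of 22 alternative fits and was lost in 13, with FDR from 0.0206 to 1. Leaving out mouse 5, 7, S2, F1 or F7 each ended it.

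Tnfrsf10b encodes the TRAIL receptor of the mouse and lies on chromosome 14 (GRCm38, chr14:69767472-69784411, plus strand, 9 exonic blocks). It was at 2.03 CPM in cKO mouse 5, 3.25 in mouse 7, 2.28 in S2 and 1.82 in F3, from 10, 13, 20 and 8 counts. In ctrl it ranged from 0 to 2.71 CPM with a median of 0.633, and 3 of 7 mice had no count. In dKO it was 0 in T2, 2.77 in T8, 0.302 in F1 and 0.582 in F7. The groups overlapped, because ctrl mice S1 (2.71 CPM, 5 counts) and T5 and dKO mouse T8 (3 counts) lay within the cKO range. The log2 fold change was 0.96 ± 0.53 in cKO compared to ctrl (FDR = 1) and 1.68 ± 0.64 in cKO compared to dKO (FDR = 0.564). Against ctrl it was the weakest of the 6 genes below the unadjusted threshold, and its 95% interval, taken from the SE, ran from -0.068 to 1.99. By litter, cKO compared to ctrl gave a ratio of 4.84 on 2 ctrl counts in litter 1 (interval 1.20 to 42.3) and of 1.08 in litter 2 (0.455 to 2.83).

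Perp, the tetraspan protein of epithelial junctions, lies on chromosome 10 (GRCm38, chr10:18845020-18857073, plus strand, 3 exonic blocks) and was the lowest of the 7 in cKO. It was at 0.609 CPM in mouse 5, 0.5001 in mouse 7, 1.02 in S2 and 0 in F3, from 3, 2, 9 and 0 counts. In ctrl it ranged from 0 to 1.09 CPM, with a median of 0 and 7 counts in all, and in dKO it was 0 in T2 and F1, 0.924 in T8 and 0.388 in F7. The ranges of the 3 groups overlapped and each started at 0. The log2 fold change was -0.24 ± 0.80 in cKO compared to ctrl (FDR = 1), with an interval from -1.81 to 1.32, so that a difference of 2 times either way was not excluded. Its sign is opposite to that of the difference of the means over mice (0.533 CPM in cKO and 0.437 in ctrl) and the same as that of the pooled counts (0.633 and 0.738 CPM). Of 8 markers of epithelium and choroid plexus, Krt8, Krt5 and Krt14 were listed at 0 in every ctrl and cKO mouse, and their summed level was 0.909 to 2.00 CPM in cKO, 1.09 to 55.4 in ctrl and 1.75 to 25.9 in dKO. The choroid plexus marker Ttr was lower in cKO than in ctrl (log2 fold change -5.61, FDR = 0.0065). The part of such cells in the Perp level was not tested.

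Aen, the apoptosis-enhancing nuclease, lies on chromosome 7 (GRCm38, chr7:78895854-78911209, plus strand, 7 exonic blocks) and holds a p53 decamer in its promoter window. It was at 24.2 CPM in cKO mouse 5, 31.3 in mouse 7, 37.2 in S2 and 42.5 in F3, from 119, 125, 327 and 187 counts. In ctrl it ranged from 10.1 to 29.2 CPM (median 22.2), and in dKO it was 19.9 in T2, 14.8 in T8, 30.2 in F1 and 27.0 in F7. In each comparison 3 of 4 cKO mice lay above all mice of the other group, and mouse 5 did not. The means were 33.8 ± 7.88 CPM in cKO, 19.3 ± 7.36 in ctrl and 23.0 ± 6.94 in dKO. The log2 fold change was 0.67 ± 0.22 in cKO compared to ctrl (FDR = 0.311) and 0.49 ± 0.23 compared to dKO (FDR = 1). Within litters, the cKO to ctrl ratio was 1.19 in litter 1 (interval 0.930 to 1.54) and 1.43 in litter 2 (1.14 to 1.80), and the cKO to dKO ratio was 1.51 in litter 4 (1.24 to 1.83). The fold change moved with the batch, at 0.40 on the log2 scale within batch 1 (FDR = 1) and 1.43 within batch 3 (FDR = 0.108), which holds the 2 shallowest ctrl libraries (T3 and T5). The Aen level also tended to be higher in deeper libraries. Over the 15 mice the Pearson correlation of its log2 CPM with the log10 library total was 0.80, the highest of the 7 genes. That of the others ranged from 0.36 (Phlda3) to 0.68 (Fas). The cKO libraries are deeper than all ctrl libraries, so depth and genotype cannot be told apart in these correlations. Within ctrl, the 4 shallower mice (T3, T5, 2 and T4, with 399832 to 1021502 counts) had 11.7, 22.2, 10.1 and 14.1 CPM, and the 3 deeper ones (S1, S3 and 6) 22.8, 29.2 and 25.3 CPM. Among the mice of over 1000000 counts the log2 fold change was 0.53 (FDR = 0.937) against ctrl. The part of depth in the Aen difference was not tested.

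Phlda3, the AKT antagonist, lies on chromosome 1 (GRCm38, chr1:135766119-135769136, plus strand, 3 exonic blocks). It was at 2.23 CPM in cKO mouse 5, 4.25 in mouse 7, 3.07 in S2 and 2.27 in F3, from 11, 17, 27 and 10 counts. In ctrl it ranged from 0 to 6.67 CPM with a median of 0.543, and in dKO it was 0 in T2, 3.70 in T8, 0.604 in F1 and 1.55 in F7. Every cKO mouse lay above 6 of 7 ctrl mice, and the exception was T5, whose 6.67 CPM rest on 3 counts. The log2 fold change was 1.71 ± 0.58 in cKO compared to ctrl (FDR = 0.205) and 1.07 ± 0.52 in cKO compared to dKO (FDR = 1). Without T5 the former was 2.34 (FDR = 0.0388), and with litter in the model it was 2.47 (FDR = 0.0496). Within batch 1 it was 2.53 (FDR = 0.365), and within batch 3, which holds T5, it was 0.02 (FDR = 1). In litters 1 and 2 the cKO to ctrl ratios of 5.89 and 5.83 each rest on 2 ctrl counts, with intervals from 1.49 to 51.0 and from 1.46 to 50.6. In litter 4, F3 had 10 counts and its dKO littermates 10 together. The cKO to dKO ratio was 1.92, with an interval from 0.719 to 5.15 that includes no difference.

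Ei24, the endoplasmic reticulum protein, lies on chromosome 9 (GRCm38, chr9:36779159-36797393, minus strand, 10 exonic blocks) and also holds the decamer in its promoter window. It was at 45.5 CPM in cKO mouse 5, 44.0 in mouse 7, 45.8 in S2 and 36.6 in F3, from 224, 176, 403 and 161 counts. In ctrl it ranged from 21.6 to 36.4 CPM (median 31.1), just below the lowest cKO mouse. In dKO it was 34.8 in T2, 40.7 in T8, 29.3 in F1 and 34.0 in F7, and T8 lay within the cKO range. The means were 43.0 ± 4.34 CPM in cKO, 30.8 ± 5.06 in ctrl and 34.7 ± 4.67 in dKO. The log2 fold change was 0.44 ± 0.16 in cKO compared to ctrl (FDR = 0.516), a 1.35-fold difference, and 0.37 ± 0.17 in cKO compared to dKO (FDR = 1). Within litters, the cKO to ctrl ratio was 1.28 in litter 1 (interval 1.04 to 1.56) and 1.39 in litter 2 (1.14 to 1.71), and F3 exceeded its dKO littermates by 1.14-fold (0.931 to 1.39). The gene shares 324 exonic bases with the antisense gene Gm26787, which had 32 counts over all mice, and whether strand was used in counting is not given in the sources used here.

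Compared per kilobase of exon, Ei24 and Aen led in every group. In cKO the mean levels were 8.83 ± 0.891 CPM per kilobase for Ei24, 5.82 ± 1.36 for Aen, 2.01 ± 0.535 for Eda2r and 1.90 ± 0.606 for Phlda3, and below these came Fas (0.638), Tnfrsf10b (0.430) and Perp (0.273). In ctrl Eda2r stood at 0.372 ± 0.396, below Phlda3 (0.852 ± 1.53), within the spread of both. Eda2r and Phlda3 did not differ beyond their spread in cKO either, and the ranges of Fas, Tnfrsf10b and Perp overlapped from each to the next. The summed CPM of the 7 genes, most of it Ei24 and Aen, was 89.8 to 102 in cKO, 36.7 to 66.5 in ctrl and 56.4 to 65.6 in dKO.

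**Figure D2:**
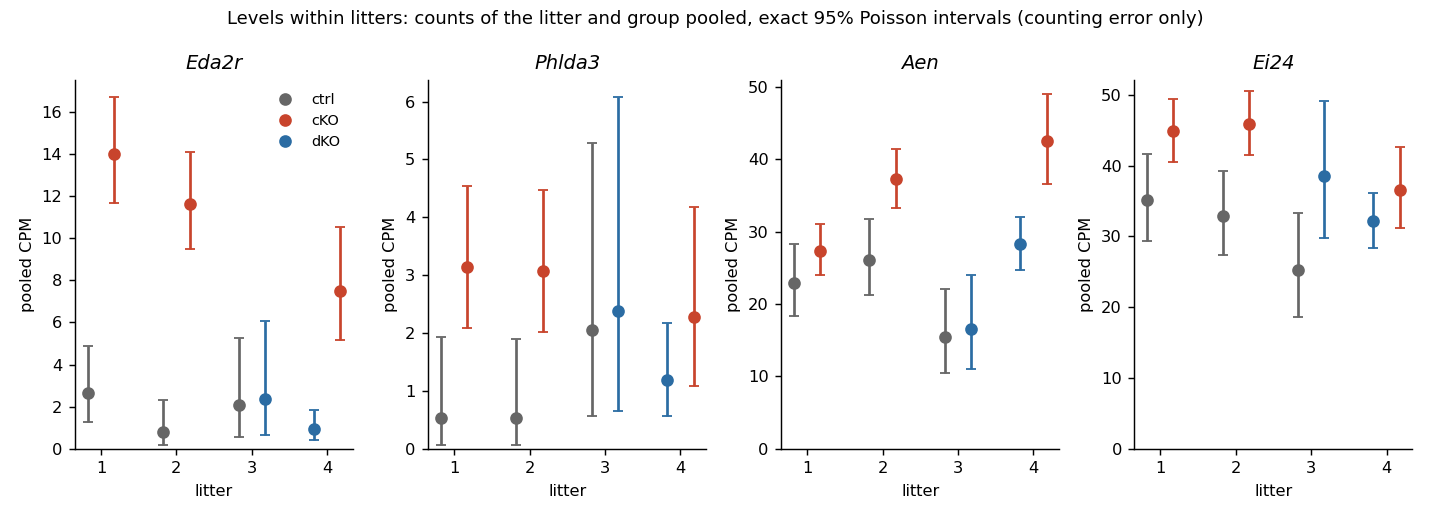
Pooled CPM (vertical axis, starting at 0) of Eda2r, Phlda3, Aen and Ei24 by litter and group, with exact 95% Poisson intervals of counting error. In litters 1, 2 and 4 the Eda2r level of cKO lies clear of its littermates (14.01 against 2.66, 11.6 against 0.791 and 7.50 against 0.945 CPM), whereas the intervals of dKO and ctrl in litter 3 overlap for all 4 genes. Such intervals can overlap where that of the ratio excludes 1. For Ei24 this holds in litter 3 (dKO to ctrl 1.53, interval 1.04 to 2.26) and litter 1 (cKO to ctrl 1.28, interval 1.04 to 1.56).

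In dKO compared to ctrl, 0 of 7 genes had an FDR below 0.05 by the edgeR likelihood ratio test, against 0.101% of 25669 genes with a count. None had an unadjusted p below 0.05, against 6.72% of the genes, none was called by the quasi-likelihood test or by DESeq2, and none had groups that did not overlap, against 0.467%. Ei24 and Aen, with 337 and 267 dKO counts, gave the narrowest intervals, from -0.26 to 0.47 and from -0.28 to 0.71 on the log2 scale. Within litter 3, pooled Ei24 counts gave a dKO to ctrl ratio of 1.53 with a counting interval from 1.04 to 2.26. For Eda2r, with 12 dKO and 17 ctrl counts, the interval ran from -1.85 to 1.08. For Phlda3 it ran from -1.12 to 2.30, for Tnfrsf10b from -2.31 to 1.37 and for Perp from -3.29 to 1.22. Fas had 0 dKO counts and 2 ctrl counts, so no fold is given. For Eda2r, Phlda3, Tnfrsf10b and Perp these intervals include differences of over 2-fold in either direction.

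In cKO compared to dKO, 2 of 7 genes (Eda2r and Fas) were called higher at an FDR below 0.05, against 0.038% of 26283 genes with a count. At an unadjusted p below 0.05, 6 of 7 were higher (all but Perp), against 1.77%, and in 2 of 7 (Eda2r and Fas) every cKO mouse lay above every dKO mouse, against 1.88%. As above, these shares describe genes chosen with earlier results known. The count of 6 moved with the fit. It was 3 without S2, 3 to 5 when each of the 8 mice was left out in turn, 2 by DESeq2 and 3 with batch or litter as a covariate, and Eda2r and Fas were below the threshold in each of these fits. The median log2 fold change of the 7 was 1.07, also with Fas set at its lower limit, and that of all genes -0.01. Only F3 shared a litter with dKO mice, and the comparison otherwise crosses batches. With batch as a covariate the Eda2r log2 fold change was 2.62 (FDR = 0.0111), and with litter 2.96 (FDR = 0.0012). Mice F1 and F7 had the largest shares of reads outside genes (7.88% and 10.9%, against 5.00% to 6.88% in the other libraries), and without them the Eda2r log2 fold change was 2.30 (FDR = 0.113). The comparisons of cKO and of dKO with ctrl share the same ctrl mice, and the values of each are given side by side, not as independent evidence.

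**Figure D3:**
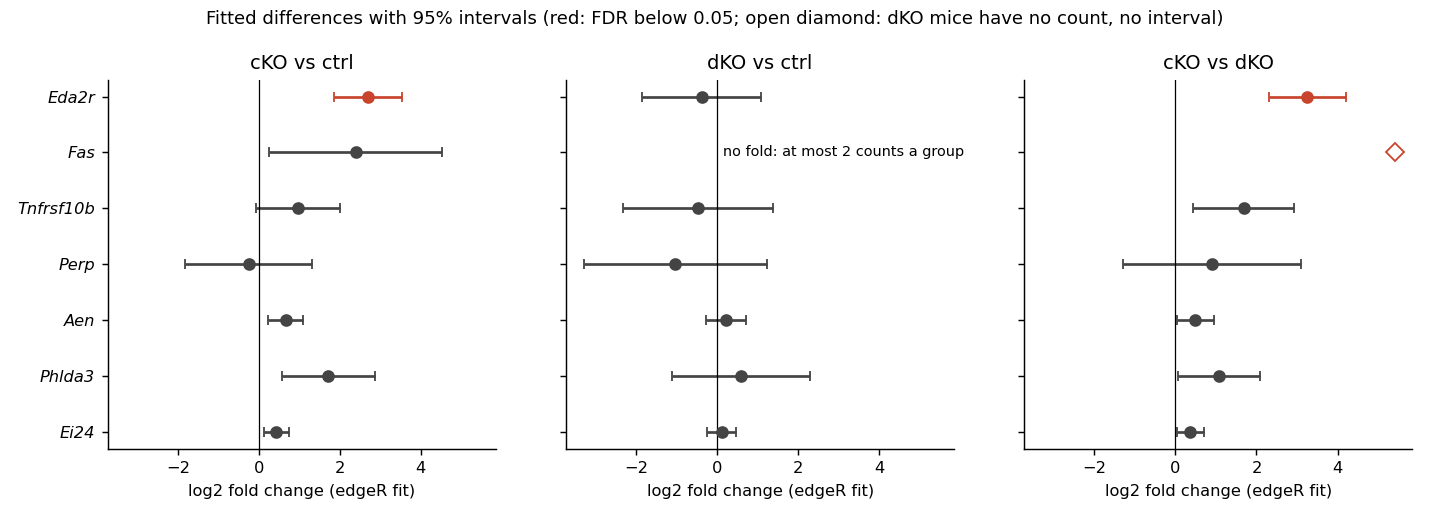
Log2 fold changes (horizontal axis) of the 7 genes in the 3 comparisons, with 95% intervals from the edgeR fit. Red marks an FDR below 0.05 (Eda2r in both comparisons of cKO, and Fas in cKO compared to dKO, drawn as an open diamond because the dKO mice have no Fas count and its fitted value of 5.41 is no bound). All intervals of dKO compared to ctrl include 0.

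The ligands of the receptors were at very different levels. Eda, whose A2 isoform is the ligand of the EDA2R protein, was at 83.1 ± 7.70 CPM in cKO, 80.6 ± 14.7 in ctrl and 85.8 ± 14.3 in dKO, with a log2 fold change of 0.04 in cKO compared to ctrl (FDR = 1). Gene counts do not separate its isoforms. Fasl, the ligand of FAS, was near the detection limit, with 11 counts in cKO, 2 in ctrl and 4 in dKO. Tnfsf10, which encodes TRAIL, had 5 counts in cKO, 0 in ctrl and 2 in dKO. Of the 3 ligand genes, Eda alone was abundant in this tissue, and it did not pass the test.

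Of 20 other receptors and ligands of the family, 18 had a count and none passed an FDR of 0.05 in cKO compared to ctrl, with 1 higher and 2 lower at an unadjusted p below 0.05 and a median log2 fold change of -0.10 (-0.11 with genes at 0 in ctrl set at their bound). The higher one was Edar, the receptor of the A1 isoform of ectodysplasin and the nearest relative of Eda2r by ligand, at 4.03 ± 0.615 CPM in cKO and 2.47 ± 1.89 in ctrl (log2 fold change 0.93 ± 0.42, FDR = 0.828). In dKO Edar was at 4.62 ± 4.67 CPM, where 1 mouse reached 11.6 CPM and the pooled counts gave 2.96 CPM. Its log2 fold change in cKO compared to dKO was 0.36 ± 0.39 (FDR = 1), opposite in sign to the difference of the means over mice. The lower ones were Tnfrsf19, a receptor also called TROY (53.1 ± 7.10 CPM in cKO, 72.7 ± 16.2 in ctrl and 75.5 ± 12.02 in dKO, log2 fold change -0.48 ± 0.16, FDR = 0.359), and Tnfrsf23, a mouse decoy TRAIL receptor (0.572 ± 0.324 CPM in cKO and 1.41 ± 1.22 in ctrl, log2 fold change -1.37, FDR = 0.801). In cKO compared to dKO, Tnfrsf19 was the only gene of the 20 at an unadjusted p below 0.05 (log2 fold change -0.44 ± 0.17, FDR = 0.750), while Ltbr, Tnfrsf12a and Lta, the next by p, each had an FDR of 1.

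Of 23 genes that act below the receptors, 22 had a count, and none passed an FDR of 0.05 or an unadjusted p of 0.05 in cKO compared to ctrl by edgeR. The adaptor Fadd was at 3.27 ± 1.11 CPM in cKO and 4.12 ± 3.04 in ctrl (log2 fold change -0.32 ± 0.41). The initiator caspase Casp8 was at 3.58 ± 0.325 and 3.31 ± 3.27 CPM (0.00 ± 0.37). Its inhibitor Cflar was at 18.4 ± 1.23 and 20.1 ± 5.57 CPM (-0.24 ± 0.19). Fadd, Casp8 and Cflar, which act in the death-inducing complex below the receptor, were all detected in cKO cortex, without a difference from ctrl larger than the spread between mice. Birc2 and Rela, of the survival arm, were the 2 genes with the smallest p on the higher side (log2 fold changes 0.25 and 0.28, both with an FDR of 1), and Mlkl and Birc3, at no more than 2 and 6 counts per mouse, those on the lower side. In cKO compared to dKO 1 gene, Traf6, was higher at an unadjusted p below 0.05 (32.1 ± 3.80 CPM in cKO, 20.6 ± 7.85 in dKO and 35.3 ± 8.24 in ctrl, FDR = 0.780). In dKO compared to ctrl its log2 fold change was -0.68 (FDR = 0.649). Traf1, at no more than 2 counts per mouse, and Casp8 had the smallest p on the other side, both with an FDR of 1.

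Of 10 other p53 targets linked to apoptosis, 3 (Plk2, Zmat3 and Cyfip2, the last named after its values were seen) were higher and none lower at an unadjusted p below 0.05 in cKO compared to ctrl, and the median log2 fold change was 0.19. Plk2, a polo-like kinase that p53 induces, passed an FDR of 0.05 (61.5 ± 12.2 CPM in cKO, 36.1 ± 7.68 in ctrl, log2 fold change 0.68 ± 0.17, FDR = 0.0332), a call that was lost when any of ctrl mice S3, S1, T3, T4 and T5 or cKO mice 5, 7 and F3 was left out, and in other alternatives listed in the closing section. In dKO Plk2 was at 50.9 ± 23.5 CPM. Its log2 fold change in dKO compared to ctrl was 0.54 ± 0.22 (unadjusted p = 0.012 by the edgeR likelihood ratio test), which did not pass an FDR of 0.05. In cKO compared to dKO it was 0.20 ± 0.25 (FDR = 1). Zmat3, a p53-induced RNA-binding protein, was at 42.2 ± 7.04 CPM in cKO, 31.4 ± 10.3 in ctrl and 31.1 ± 6.25 in dKO (log2 fold change 0.41, FDR = 0.846 against ctrl, and 0.48, FDR = 0.830 against dKO). Trp53inp1, an autophagy-linked target, was at 58.6 ± 10.1, 51.9 ± 13.0 and 47.6 ± 7.64 CPM. Against dKO, 1 gene of the list was higher in cKO (Zmat3) and 1 lower (Steap3) at an unadjusted p below 0.05, and the median log2 fold change was 0.19. Steap3, a metalloreductase, was at 0.642 ± 0.377 CPM in cKO, 1.88 ± 1.66 in ctrl and 1.22 ± 1.02 in dKO (log2 fold change -1.21 against ctrl and -1.36 against dKO, both with an FDR of 1), and Siva1, a death receptor adaptor, at 8.85 ± 2.65 and 10.5 ± 2.14 CPM (FDR = 1).

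Among 10 relatives by family, 9 had a count. Beside Edar and Tnfrsf19, both given above, none had an unadjusted p below 0.05 in cKO compared to ctrl, and the median log2 fold change was -0.10. Phlda1, the paralog of Phlda3, was at 5.20 ± 1.92 CPM in cKO, 4.22 ± 1.47 in ctrl and 6.99 ± 2.56 in dKO (log2 fold change 0.32, FDR = 1, in cKO compared to ctrl). Isg20l2, related to Aen by its exonuclease domain, was at 29.9 ± 3.35, 31.3 ± 9.59 and 30.8 ± 7.64 CPM, and Isg20 had at most 4 counts in a mouse.

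**Figure D4:**
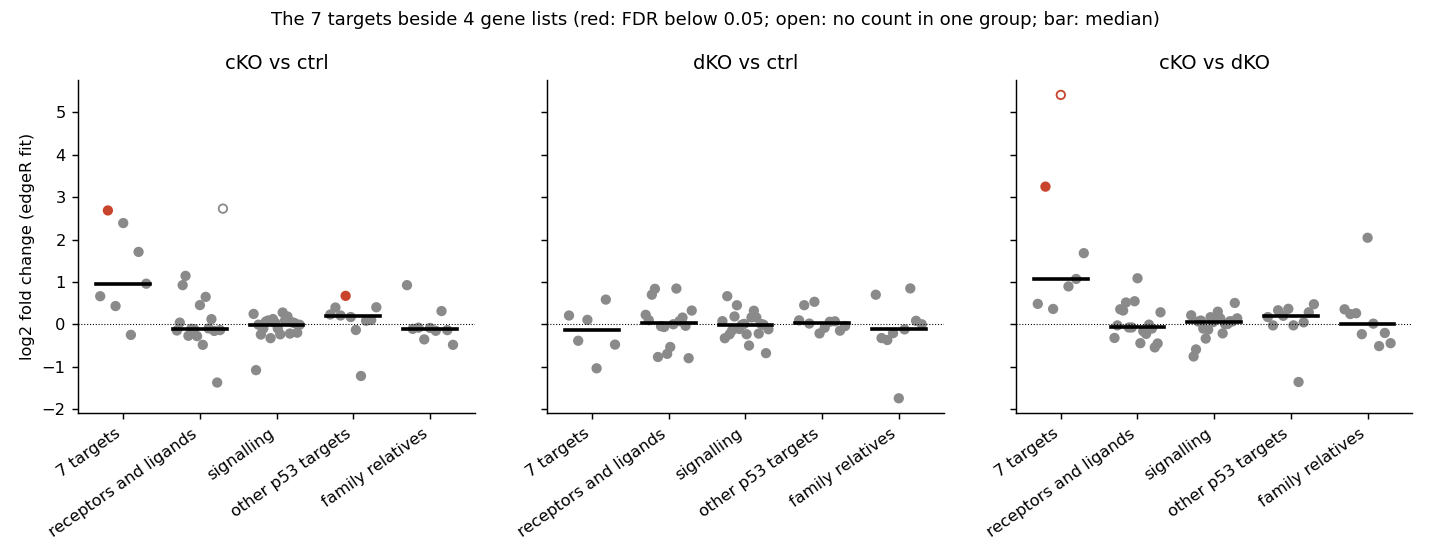
Log2 fold changes (vertical axis) of the 7 genes beside 4 lists of related genes in the 3 comparisons, 1 point per gene with more than 3 counts in a group. Red marks an FDR below 0.05, open points genes with no count in one group, and bars the medians with such genes at their bound. The median of the 7 is 0.96 in cKO compared to ctrl and 1.07 in cKO compared to dKO, while in these 2 comparisons those of the 4 lists lie between -0.11 and 0.19.

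Genes whose log2 CPM followed each of the 7 most closely over the 15 mice were sought among 10855 genes of at least 5 CPM on average. These values are a description, since the mice share groups and batches. For Eda2r they were Pvt1 (Pearson r = 0.87), Ano3 (0.79) and Dglucy (0.79). Pvt1, a long non-coding RNA gene, was at 69.5 CPM on average in cKO, 32.5 in ctrl and 37.2 in dKO, and Ano3, an anoctamin, at 59.1, 15.5 and 21.0 CPM. For Fas they were Grip1 (0.91), Erbb4 (0.87) and Nol4 (0.85). Erbb4 is an interneuron marker and was higher in cKO, at 2581 CPM against 1723 in ctrl and 1763 in dKO. For Aen they were Zfp428, Bnip3 and Ccdc115 (0.88, 0.87 and 0.87), and for Ei24 Fam8a1, Dctn4 and Camkmt (0.84, 0.83 and 0.79). For the low genes they were Asap1, Zfp618 and Atg4b for Tnfrsf10b (0.90, 0.88 and 0.87), Pqlc2, Zc3h8 and Ndufs1 for Phlda3 (0.88, 0.84 and 0.82) and St7l, Rfk and Gm21992 for Perp (0.93, 0.88 and 0.86).

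The levels of markers of some cell types differed between the groups as well. Fewer cells and less RNA per cell cannot be told apart in these values. The summed level of 5 intermediate progenitor markers was 62.6 to 119 CPM in cKO, below all ctrl mice (124 to 170), and 85.0 to 157 in dKO. Of the 5, Eomes and Neurog2 alone passed the test in cKO compared to ctrl (log2 fold changes -1.13 and -1.19, FDR = 5.1e-06 and 0.0056). The summed level of 7 interneuron markers was 2944 to 4292 CPM in cKO, above ctrl (1998 to 2562) and dKO (2131 to 2672), with 2 of 7 (Gad1 and Erbb4) past an FDR of 0.05. Most of each sum was Erbb4, at 2581 CPM on average in cKO and 1723 in ctrl. All 7 had log2 fold changes above 0 in cKO compared to ctrl, the smallest being that of Dlx2 (0.18). The 6 fibroblast and meninges markers summed to 2.96 to 9.09 CPM in cKO (median 7.10), within the range of ctrl (1.63 to 98.0, median 8.89). In dKO they summed to 0 to 95.2 CPM. All 6 had log2 fold changes below 0 in cKO compared to ctrl, and none passed an FDR of 0.05. The sums of 10 microglial (13.9 to 28.4 CPM in cKO, 7.60 to 31.1 in ctrl) and 10 vascular markers (124 to 156 and 95.6 to 154) also overlapped between cKO and ctrl. The sums of 7 radial glia (445 to 561 and 410 to 676 CPM), 7 cortical neuron (2246 to 2822 and 2004 to 2598) and 6 erythroid markers (17.3 to 21.9 and 9.41 to 21.8) overlapped as well. The 6 radial glia markers with a count all had log2 fold changes below 0 in cKO compared to ctrl. Of these, 3 (Pax6, Vim and Slc1a3) had an unadjusted p below 0.05 by the edgeR likelihood ratio test, and none passed an FDR of 0.05. In dKO the erythroid sum was 23.1 to 31.1 CPM, above every ctrl and every cKO mouse, and the hemoglobin gene Hba-a2 passed the test in dKO compared to ctrl (log2 fold change 1.98, FDR = 0.0203). The part of these shifts in the levels of the 7 genes was not tested.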

How the data were processed

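Total RNA of E15.5 cortex was depleted of ribosomal RNA and made into 16 ClickSeq libraries with unique molecular identifiers (UMI). The authors trimmed reads with cutadapt 1.13, aligned them to GRCm38/mm10 with STAR 2.5.2a, removed duplicates by UMI with UMI-tools 0.5.3 and deposited htseq-count 0.6.1p1 counts per gene. UMI counts limit amplification bias, and the strand setting of the counting is not given in the sources used here. Summary lines that name no gene (21.6% to 38.7% of a library's total) were left out.

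The counts of S2 and S2b, libraries of 1 mouse that differed little beyond sampling noise (chi-square per degree of freedom 1.14, against 3.56 to 27.4 for other pairs of cKO libraries), were summed. Symbols and coordinates came from GENCODE vM21. Groups were compared in pairs with edgeR 4.0.16 (R 4.3.3) by likelihood ratio tests with Benjamini-Hochberg FDR, as in the study's methods. TMM, estimateDisp, the test of all 51912 genes and a model without covariates were chosen here. The scripts were tested on simulated data. Pooled levels have exact 95% Poisson intervals and their ratios exact conditional ones, which cover counting error only. Likeness used log2 CPM (prior count 2). Alternatives included quasi-likelihood tests, DESeq2 1.42.0, other scalings and filters, covariates, batches and mice left out.

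The 7 genes and all lists were chosen with earlier results of these data known. From the lists, a gene is named if it had an FDR below 0.05, was among the 2 smallest p in either direction of a cKO comparison, or was the ligand or main adaptor of one of the 7. Mice are separate animals, so tests measure the spread between mice. The main fits held no litter or batch term, so littermates were treated as independent.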

Additional observations from a re-analysis of the deposited data

Results flagged for a closer look

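In groups of 4 to 10 mice, a mouse was singled out where its gap to the nearest other mouse was a large share of the group's range (Dixon's 95% critical value). Of 26 groups tested (the 7 genes, Knl1 and Trp53 in ctrl, cKO and dKO, leaving out the group without any count), 4 held such a mouse. Chance alone gives about 1 in 20 for normally distributed values. Levels that rest on a few counts are not so distributed, so no conclusion is drawn from the number. For Eda2r in ctrl it was T3, the highest at 7.00 CPM on 3 counts, with the next mouse at 2.85 CPM. For Phlda3 in ctrl it was T5, at 6.67 CPM on 3 counts, with the next at 0.941 CPM. For Fas in ctrl it was mouse 6, at 0.633 CPM on 2 counts, the only ctrl mouse with a count. T3 and T5 are the 2 shallowest libraries of the series, with 399832 and 417440 counts. For Knl1 in cKO it was S2, at 80.4 CPM on 707 counts, with the next at 51.8 CPM.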

How the results depend on the processing

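Of 550 log2 fold changes of the 7 genes and of Knl1 and Trp53 under alternative settings, 509 kept their direction and side of the threshold. The number of the 7 genes called in cKO compared to ctrl (1) was 2 with litter as a covariate (Eda2r and Phlda3), 0 within batch 3, and 1 to 2 when each mouse was left out in turn, 2 being reached without T5. In cKO compared to dKO the number (2) was 1, Eda2r, by the quasi-likelihood test, by DESeq2, with the filter on low counts (which removes Fas), in a fit of all 3 groups, with batch or litter as a covariate and with S2b alone, and 0 within batch 3 and, in an alternative chosen after seeing the data, without F1 and F7. It was 1 to 2 when each mouse was left out. In dKO compared to ctrl it was 0 throughout. Plk2, the 1 listed gene called in cKO compared to ctrl, gave a count of 0 with size factors of DESeq2's kind (RLE), library totals, all 3 groups in a fit, batch or litter as a covariate, S2 and S2b apart, wild-type ctrl alone, batch 1 alone or mice of over 1000000 counts, and 0 to 1 when each mouse was left out.

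Signs turned for values of few counts or small size. In cKO compared to ctrl, Perp ranged from -0.85 to 0.078 with mice left out (turning without F3), and Knl1 was 0.12 with litter as a covariate and 0.11 within batch 1. In dKO compared to ctrl, with batch as a covariate, litter as a covariate, batch 3 only and litter 3 only, Tnfrsf10b was 0.48, 1.51, 0.48 and 1.36, Perp 2.40, 3.21, 2.37 and 2.12, Phlda3 -0.60, -0.0042, -0.62 and -0.0060, and Trp53 0.073, 0.35, 0.064 and 0.36. With mice left out, Tnfrsf10b ranged from -1.32 to 0.062, turning without S1. In cKO compared to dKO, Perp was -3.39 with batch and -3.06 with litter as a covariate and -3.00 within batch 3. The cause of these changes was not tested. The groups share no replicate numbers, so no fit was blocked on them, and litter, which groups do share, was the block tried. The number of the 7 genes higher at an unadjusted p below 0.05 in cKO compared to ctrl (6) was 3 with the filter on low counts and 1 within batch 3, and in cKO compared to dKO (6) it was 2 by DESeq2 and with the filter, 3 with batch or litter as a covariate, within batch 3 and without F1 and F7, and 4 with RLE, library totals, S2b alone or mice of over 1000000 counts. Depth sets the limit for Fas, Perp, Tnfrsf10b and Phlda3, whose ctrl groups hold 2 to 11 counts.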
